A study of Rattus norvegicus with 12 samples.

Results

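The 9 cyclic nucleotide phosphodiesterase genes Pde1c, Pde2a, Pde3a, Pde3b, Pde4a, Pde4b, Pde4d, Pde5a and Pde9a were followed in both ventricles, left (LV) and right (RV), of neonatal rats with and without volume overload (VO). They were chosen by name together with Prkg1, the gene of cGMP-dependent protein kinase I (PKG), which made 10 named genes in all. Of these, 9 were matched by symbol among the 32545 genes of the expression table, and expression of Prkg1 was not analysed here. Myocardium was taken from the LV and RV free walls of Sprague-Dawley (SD) rats on postnatal day 7 (P7), after surgery on P1. The VO rats had a needle-made fistula between the abdominal aorta and the inferior vena cava, and the sham rats had a sham operation on the same day, so that all groups had undergone surgery. Each of the 4 groups, the LV and RV of sham rats and the LV and RV of VO rats, held 3 mRNA-seq libraries of bulk tissue. In such tissue, fewer cells of a type and less RNA per cell cannot be told apart.

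Cyclic AMP and cyclic GMP are second messengers, and phosphodiesterases end their signals by hydrolysing them. In the heart, cAMP made after beta-adrenergic stimulation activates protein kinase A (PKA) and raises the force and rate of contraction, whereas cGMP, made by guanylyl cyclases that respond to nitric oxide or natriuretic peptides, activates PKG. The Pde4 enzymes are specific for cAMP. Pde5a and Pde9a are specific for cGMP, and Pde1c, Pde2a, Pde3a and Pde3b act on both. Pde2a is stimulated by cGMP and the Pde3 enzymes are inhibited by it, so that the level of one messenger can change the breakdown of the other.

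The libraries held 14121713 to 16871371 reads on genes, and 17128 to 17807 genes had a value above 0. Ventricular cardiomyocyte markers were high throughout, with 9 genes summing to 13043 to 20778 FPKM. FPKM are read fragments on a gene, scaled by transcript length and by library size. Hand1, a transcription factor gene of the LV, ranged over 2.10 to 3.48 FPKM in the sham LV and 0.802 to 1.21 FPKM in its RV, and over 4.10 to 5.21 FPKM in the overloaded LV and 0.317 to 0.345 FPKM in its RV, so the ventricle labels and this gene gave the same split. The 4 atrial markers summed to 440 FPKM in sham RV replicate 1 and 1522 in VO RV replicate 2, against 148 to 306 in the other 10 libraries. The 5 Y-linked genes measured summed to 56.1 to 64.9 FPKM in 5 libraries, namely sham LV replicates 1 and 2, sham RV replicates 1 and 2 and VO RV replicate 3, and to at most 0.373 in the other 7, which included all VO LV libraries. Y-high and Y-low libraries were thus unevenly spread over the groups.

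Pde4 genes are known to be induced through cAMP and its response element (CRE), so the promoters of the named genes were searched for it. Its full form is TGACGTCA and its short core is TGACG. RefSeq windows of the GRCr8 assembly, from 250 bases before to 50 after a transcript's start, were found for 8 of the 10 named genes (17 windows). Both strands were searched. The full CRE was in 0 of the 17 windows, against 1.83% of all 33469 windows. The short core was in 4 of the 17, 2 of Pde4a and 2 of Pde4d, against 21.2% of all windows, a count that also takes in any full element. The 2 windows of Pde4b held no match. Pde4a and Pde4d are shown because only their windows held matches. The stretches around each match are printed in lower case on the gene's strand, with the core in capitals, as TGACG or as its reverse complement CGTCA.
Pde4a, GRCr8 chr8:27966950-27966986, plus strand: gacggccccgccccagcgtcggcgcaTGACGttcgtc
Pde4a, GRCr8 chr8:27999369-27999412, plus strand: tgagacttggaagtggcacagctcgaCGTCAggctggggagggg
Pde4d, GRCr8 chr2:42592499-42592548, plus strand: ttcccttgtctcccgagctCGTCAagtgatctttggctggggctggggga
Pde4d, GRCr8 chr2:42592529-42592585, plus strand: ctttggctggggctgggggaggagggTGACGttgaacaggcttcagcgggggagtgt
Pde4d, GRCr8 chr2:42767572-42767616, plus strand: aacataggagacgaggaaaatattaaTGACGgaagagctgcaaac
Counted from the transcript's start, the Pde4a matches began at -11 and -18 and the Pde4d matches at -231, -194 and -19. The first 2 stretches of Pde4d come from the same window and overlap each other. The matches are letters in these windows and were not tested as binding sites.

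Among the members, Pde2a had the highest FPKM in every group and Pde1c the lowest. FPKM is scaled by a single length per gene, so levels can be set side by side between genes only roughly, as the transcripts in use may differ in length. In sham LV the order was Pde2a, Pde3a, Pde9a, Pde4b, Pde4a, Pde5a, Pde4d, Pde3b and Pde1c, and the libraries of neighbours overlapped for Pde3a and Pde9a, for Pde4b and Pde4a, and for Pde4d and Pde3b. In sham RV, Pde4b (mean 11.3 FPKM) and Pde4a (7.11 FPKM) stood above Pde9a (6.05 FPKM), and the libraries of Pde4a and Pde9a did not overlap. In VO LV the order was Pde2a, Pde3a, Pde4b, Pde9a, Pde4a, Pde4d, Pde5a, Pde3b and Pde1c, with overlap between Pde3a and Pde4b, between Pde9a and Pde4a, between Pde4a and Pde4d, and between Pde5a and Pde3b. VO RV gave the same order, but from Pde3a down to Pde3b every pair of neighbours overlapped.

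**Figure D1:**
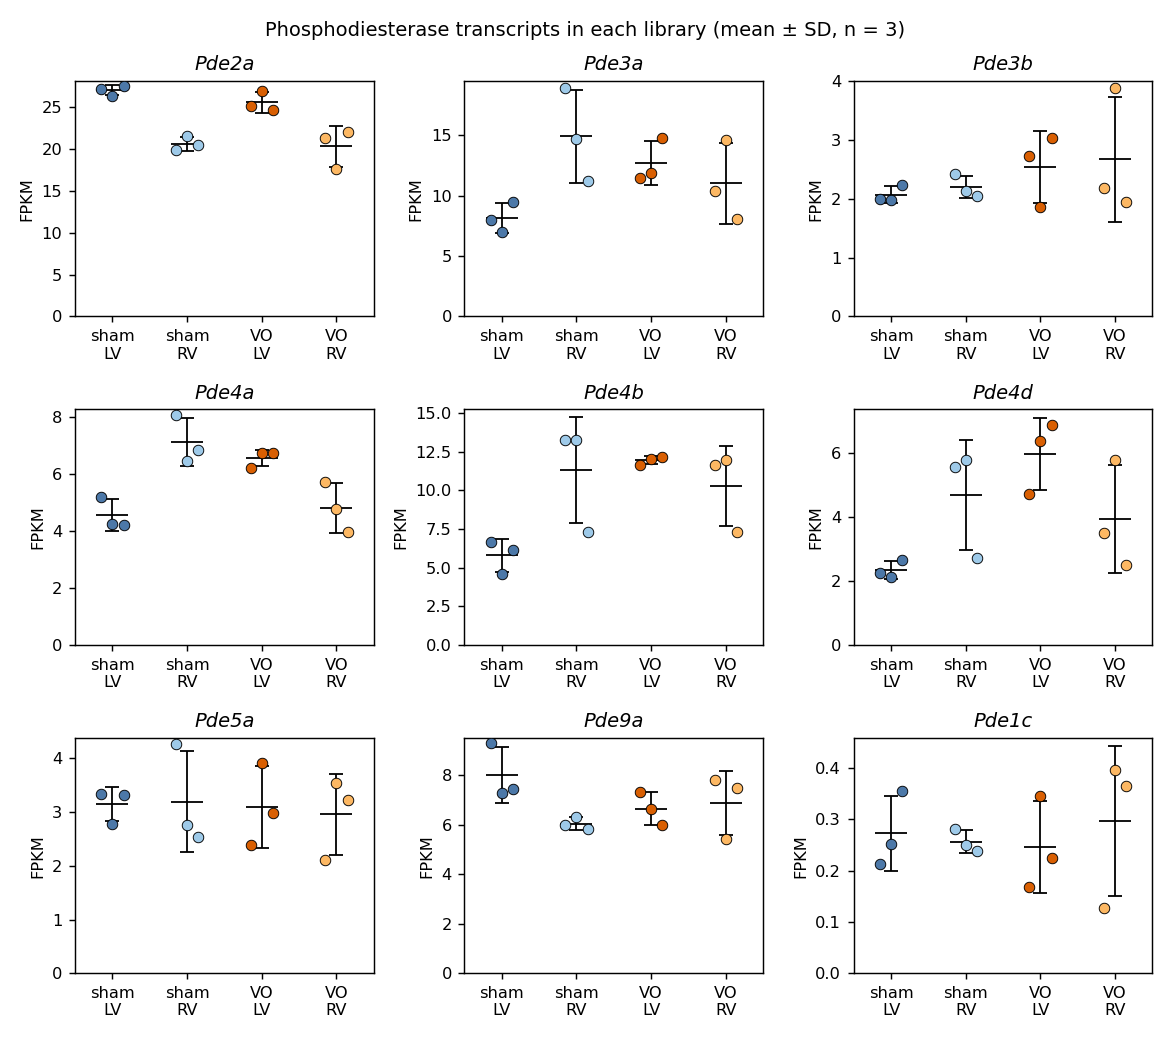
FPKM (y axis, from 0, a scale of its own in each panel) of the 9 phosphodiesterase genes in the 4 groups (x axis), with each point a library and the bars giving mean ± SD (n = 3). All 3 sham LV libraries lie below all sham RV and all VO LV libraries for Pde3a, Pde4a, Pde4b and Pde4d, whereas Pde2a lies higher in both LV groups than in both RV groups.

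The summed FPKM of the 9 genes was 61.4 ± 4.11 for sham LV libraries and 70.3 ± 10.004 for those of the sham RV (SD, n = 3), and overloaded LV and RV libraries had 75.3 ± 3.02 and 63.2 ± 5.71. The cAMP-specific genes Pde4a, Pde4b and Pde4d gave 19.4% to 22.03% of it in the sham LV and 28.5% to 34.9% in the sham RV. After overload they gave 31.4% to 33.3% (LV) and 24.2% to 33.1% (RV). Sham LV was the group with the smallest Pde4 share and overlapped none of the other groups. The cGMP-specific pair Pde5a and Pde9a gave 17.0% to 19.7% in the sham LV and 11.6% to 13.7% in the overloaded LV. In the RV it gave 12.4% to 14.1% in sham rats and 13.2% to 18.8% after overload, the latter overlapping the sham LV. These shares of transcripts say nothing of enzyme activity.

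**Figure D2:**
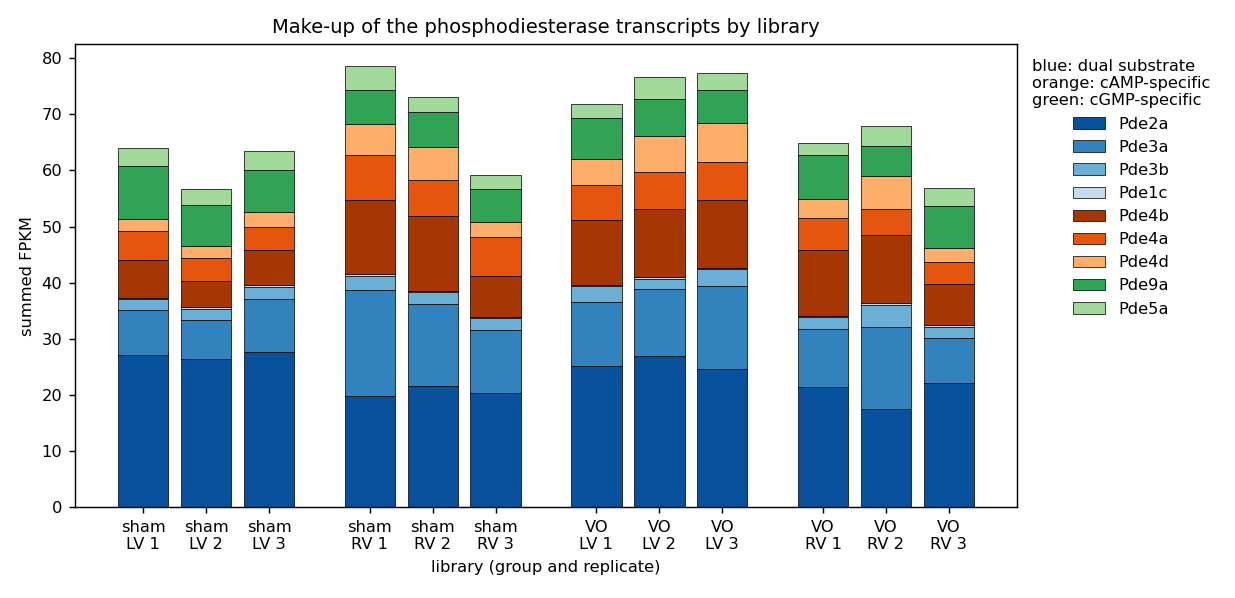
Stacked FPKM of the 9 genes (y axis) in each of the 12 libraries (x axis), with dual-substrate genes in blue, cAMP-specific genes in orange and cGMP-specific genes in green. The orange part is 11.003 to 14.1 FPKM in sham LV and 22.6 to 25.7 FPKM in VO LV.

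Members were compared with limma on log2(FPKM + 0.5) after rescaling, over the 13910 genes with a mean of at least 0.5 FPKM, in one model of the 4 groups. Of the 9 members, 8 passed this filter. Pde1c, at 0.268 FPKM on average, did not. A gene was called differentially expressed (a DEG) at a Benjamini-Hochberg adjusted p below 0.05 with a fold above 1.3, and a weaker rule used the unadjusted p with the same fold. All log2 differences below are on the log2(FPKM + 0.5) scale, which understates the change of low genes, and those of the members in the main model come with their standard error (SE). The exact two-sided permutation test of 3 libraries against 3 cannot give a p under 0.10, and it gave 0.10 for every comparison of members in which the groups did not overlap.

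The comparison of sham LV with sham RV asked how the ventricles differ without overload. Of the 8 members tested, Pde2a was higher and Pde4a lower in the LV. These 2 calls stand against 3.85% of all tested genes called in this comparison. Pde3a, Pde4b and Pde4d were also lower in the LV, by the weaker rule only, which 5 of 8 members and 17.8% of all genes passed. Groups did not overlap for 6 of 8 members, the sixth being Pde9a, against 32.2% of all genes.

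Pde2a, the cGMP-stimulated phosphodiesterase (chromosome 1, 166534643 to 166626158, plus strand in the authors' table, whose genome build is not given in the sources used here), read 27.2, 26.4 and 27.6 FPKM in sham LV and 19.9, 21.5 and 20.4 FPKM in sham RV. The 2 groups did not overlap. The log2 difference was 0.38 (SE 0.09), a 1.304-fold higher level that only just cleared the fold threshold, with a limma adjusted p of 0.0455. In VO LV, Pde2a read 25.1, 27.0 and 24.6 FPKM and in VO RV 21.4, 17.6 and 22.1 FPKM, again without overlap. That later difference was 0.33 (SE 0.09, limma adjusted p = 0.257) and was not called. Summed FPKM of the 6 endothelial markers measured was 363 to 391 in sham LV and 268 to 292 in sham RV, and 306 to 335 against 263 to 325 in the overloaded LV and RV. Endothelial markers thus moved in the same direction as Pde2a between the sham ventricles.

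Pde4a, a cAMP-specific phosphodiesterase (chromosome 8, 22189600 to 22233748, plus strand in the authors' table), read 5.20, 4.25 and 4.20 FPKM in sham LV and 8.05, 6.44 and 6.85 FPKM in sham RV. Every sham LV library lay below every sham RV library. The log2 difference was -0.59 (SE 0.14), 1.51-fold lower in the LV, with a limma adjusted p of 0.0431. Neither this call nor that of Pde2a held without any one sham LV, sham RV or VO LV library. The largest adjusted p were 0.165 for Pde2a and 0.164 for Pde4a, both without sham RV replicate 1, at log2 differences of 0.36 and -0.51.

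Pde3a, a cGMP-inhibited phosphodiesterase of cardiomyocytes and vascular smooth muscle (chromosome 4, 175431904 to 175700238, plus strand), read 7.95, 6.97 and 9.48 FPKM in sham LV and 18.9, 14.6 and 11.2 FPKM in sham RV. The groups did not overlap, but the sham RV libraries were widely spread (14.9 ± 3.84 FPKM, SD, n = 3, against 8.13 ± 1.27 FPKM in sham LV). The log2 difference was -0.82 (SE 0.22, limma adjusted p = 0.0618).

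Pde4b, which limits cAMP near the L-type calcium channel (chromosome 5, 121952977 to 122136814, plus strand), read 6.67, 4.62 and 6.13 FPKM in sham LV and 13.3, 13.3 and 7.33 FPKM in sham RV. Pde4d, the partner of beta-adrenergic receptors, of the ryanodine receptor and of other anchored complexes (chromosome 2, 40554146 to 41464264, plus strand, the longest locus of the members at 910119 bases), read 2.25, 2.13 and 2.66 FPKM in sham LV and 5.56, 5.79 and 2.71 FPKM in sham RV. For both genes sham RV replicate 3 sat close to the LV, and the other 2 RV libraries were far above it. The log2 differences were -0.87 for Pde4b (SE 0.24, limma adjusted p = 0.0599) and -0.81 for Pde4d (SE 0.30, limma adjusted p = 0.121). Replicate 3 was the Y-low library of either sham group. Taken alone, the Y-low pair read 2.66 against 2.71 FPKM for Pde4d, 6.13 against 7.33 FPKM for Pde4b, 9.48 against 11.2 FPKM for Pde3a and 4.20 against 6.85 FPKM for Pde4a, in the LV and RV respectively. With a Y-linked covariate in the model, the log2 difference of Pde4a was -0.60 (limma adjusted p = 0.0516) and that of Pde2a 0.38 (limma adjusted p = 0.0524), neither of them below 0.05.

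Pde9a, a cGMP-specific phosphodiesterase tied to natriuretic peptide signals (chromosome 20, 10123651 to 10216548, plus strand), read 9.32, 7.28 and 7.47 FPKM in sham LV and 5.996, 6.32 and 5.83 FPKM in sham RV. All LV libraries were above all RV libraries. The log2 difference was 0.37 (SE 0.14, limma adjusted p = 0.134), at a 1.29-fold change just under the fold threshold.

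For Pde5a and Pde3b the groups overlapped. Pde5a, the cGMP-specific target of sildenafil (chromosome 2, 226900619 to 227041576, plus strand), read 3.33, 2.78 and 3.31 FPKM in sham LV and 4.26, 2.76 and 2.54 FPKM in sham RV, with a log2 difference of 0.01 (SE 0.22). Pde3b, the second cGMP-inhibited enzyme, best known from fat cells and insulin signalling (chromosome 1, 183892841 to 184078071, plus strand), read 2.0004, 1.98 and 2.24 FPKM in sham LV and 2.41, 2.13 and 2.05 FPKM in sham RV. Its log2 difference was -0.07 (SE 0.22). Neither differed beyond the spread between libraries. Pde1c, the calmodulin-dependent member (chromosome 4, 86359820 to 86630543, minus strand), had 7 to 26 reads per library, with 0.213 to 0.355 FPKM in the sham LV and 0.239 to 0.281 FPKM in the sham RV, and with 0.169 to 0.345 and 0.128 to 0.396 FPKM in the overloaded LV and RV. All 4 groups overlapped, and no difference was detectable at this depth.

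Several whole marker lists also separated the sham ventricles without overlap. Sums in the LV were above those in the RV for the 9 ventricular cardiomyocyte markers (20039 to 20778 against 16455 to 18813 FPKM), for the 9 smooth muscle and pericyte markers (544 to 712 against 474 to 524 FPKM) and for the 7 red blood cell markers measured (13394 to 17352 against 6779 to 11380 FPKM). They were below for the 7 fibroblast markers (1348 to 1419 against 1480 to 1917 FPKM) and the 5 adipocyte markers (4.87 to 7.65 against 10.8 to 11.9 FPKM). The mean log2 level of mitochondrial genes was 8.12 to 8.22 in the LV and 7.73 to 7.93 in the RV. The correlation across genes of a library's log2 deviations with transcript length was -0.18 to -0.11 in the LV and -0.003 to 0.19 in the RV. The first principal component ran from -43.7 to -11.6 in the LV and from 6.51 to 26.1 in the RV. The part of the marker lists, with the endothelial list, and of the mitochondrial genes in the differences of Pde2a, Pde3a, Pde4a, Pde4b and Pde4d was not tested.

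The comparison of VO LV with sham LV asked how the LV responds to overload. No member was called, against 0.0935% of all genes (13 of 13910). By the weaker rule 4 of 8 members were higher in VO LV, namely Pde3a, Pde4a, Pde4b and Pde4d, and none lower. That rule was passed by 15.7% of all genes. Each of the 4 had its groups apart, which 32.4% of all genes had too. The median log2 difference was 0.36 over the 8 members and -0.02 over all tested genes.

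Other measures also separated the LV groups. The correlation across genes of a library's log2 deviations with transcript length was -0.18 to -0.11 in sham LV and 0.01 to 0.17 in VO LV, and the first principal component (25.9% of the variance) ran from -43.7 to -11.6 and from 5.49 to 27.4. In the sham RV this correlation was 0.00 to 0.19 and in the overloaded RV -0.13 to 0.12, lowest in VO RV replicate 3. The 5 adipocyte markers summed to 4.87 to 7.65 FPKM in sham LV and 10.1 to 16.004 FPKM in VO LV, and the endothelial markers to 363 to 391 and 306 to 335 FPKM, without overlap. Schwann cell and neuron markers (7 genes) summed to 7.29 to 9.35 and 5.43 to 7.27 FPKM, and the 4 ventricle identity markers to 76.6 to 84.8 and 86.5 to 87.4 FPKM. The mean log2 level of mitochondrial genes was 8.12 to 8.22 in sham LV and 7.65 to 7.99 in VO LV. With the gene-length trend of each library removed, the log2 differences were 0.57 for Pde3a, 0.46 for Pde4a, 0.96 for Pde4b and 1.14 for Pde4d, with limma adjusted p of 0.140, 0.0907, 0.0656 and 0.0721. The part of the marker lists and of the mitochondrial genes in these differences was not tested.

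Pde4d had the greatest difference among the members. It read 4.71, 6.35 and 6.86 FPKM in VO LV, all far above the 2.13 to 2.66 FPKM of sham LV. The log2 difference was 1.18 (SE 0.30), a 2.26-fold higher level, with a limma adjusted p of 0.0692. Pde4b read 11.7, 12.05 and 12.1 FPKM in VO LV against 4.62 to 6.67 FPKM in sham LV. The 3 VO LV libraries were close together, at 11.9 ± 0.260 FPKM (SD, n = 3). The log2 difference of Pde4b was 1.00 (SE 0.24), a 1.996-fold higher level, with a limma adjusted p of 0.0612.

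Pde4a read 6.22, 6.73 and 6.73 FPKM in VO LV against 4.20 to 5.20 FPKM in sham LV. The groups were apart, at a log2 difference of 0.49 (SE 0.14, limma adjusted p = 0.0833). Pde3a read 11.5, 11.8 and 14.8 FPKM in VO LV against 6.97 to 9.48 FPKM in sham LV. Its log2 difference was 0.62 (SE 0.22, limma adjusted p = 0.139). In both genes the lowest VO LV library still lay above the highest sham LV library.

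Pde4b and Pde4d passed the adjusted threshold in a fit of the 6 LV libraries alone (limma adjusted p = 0.0444 for both). With the Y-linked covariate their adjusted p were 0.267 and 0.276, at log2 differences of 1.02 and 1.18. All VO LV libraries were Y-low, and the only Y-low sham LV library, replicate 3, read 6.13 FPKM for Pde4b and 2.66 FPKM for Pde4d, below all 3 VO LV libraries.

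The other 4 tested members did not separate in this comparison. Pde2a, at 24.6 to 27.0 FPKM in VO LV and 26.4 to 27.6 FPKM in sham LV, had a log2 difference of -0.08 (SE 0.09). Pde9a read 7.33, 6.63 and 5.98 FPKM in VO LV, with a log2 difference of -0.25 (SE 0.14). Pde5a read 2.38, 3.90 and 2.97 FPKM, with a log2 difference of -0.04 (SE 0.22). Pde3b read 2.72, 1.85 and 3.03 FPKM, with a log2 difference of 0.22 (SE 0.22). For each of these the VO LV and sham LV libraries overlapped.

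The comparison of VO RV with sham RV asked the same of the RV. No member was called, and neither was any other gene (0% of 13910). The paper, with DESeq2 on counts, did report DEGs in this comparison. By the weaker rule, 1 of 8 members differed, Pde4a, against 4.91% of all genes, and it was also the only member whose groups did not overlap, against 12.5% of all genes. Pde4a read 5.72, 4.77 and 3.95 FPKM in VO RV against 6.44 to 8.05 FPKM in sham RV. The log2 difference was -0.53 (SE 0.14, unadjusted p = 0.00271, limma adjusted p = 0.535), so that every VO RV library lay below every sham RV library, in the opposite direction to the LV. The adipocyte markers separated these groups in the same direction, at 10.8 to 11.9 FPKM in the sham RV and 6.47 to 10.3 FPKM after overload, and their part in the Pde4a difference was not tested.

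Pde3a read 10.4, 14.6 and 8.04 FPKM in VO RV and overlapped sham RV, at a log2 difference of -0.43 (SE 0.22). Pde4b read 11.7, 11.96 and 7.33 FPKM, with a log2 difference of -0.11 (SE 0.24), and Pde4d read 3.51, 5.79 and 2.49 FPKM, with a log2 difference of -0.23 (SE 0.30). In these 3 genes VO RV replicate 3, the Y-high library of its group, was the lowest, and VO RV replicate 2, the library rich in atrial markers, the highest. Without VO RV replicate 3 the differences of Pde4b and Pde4d turned to 0.11 and 0.02, and that of Pde4b also turned, to 0.03, without sham RV replicate 1 or without replicate 2. Pde9a read 7.81, 5.42 and 7.48 FPKM, Pde5a 2.10, 3.53 and 3.22 FPKM and Pde3b 2.19, 3.89 and 1.94 FPKM. None of these was apart from sham RV, and their log2 differences were 0.16 (SE 0.14), -0.09 (SE 0.22) and 0.19 (SE 0.22). For Pde3b the direction rested on VO RV replicate 2, without which the difference was -0.07.

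The overloaded ventricles were compared directly as well. Of the 8 members, 0 were called in VO LV against VO RV, where 0.00719% of all genes were (1 of 13910). Pde4a alone passed the weaker rule, at a log2 difference of 0.42 (SE 0.14, limma adjusted p = 0.317), beside 7.4% of all genes. Pde2a and Pde4a were the 2 members without overlap, beside 16.1% of all genes. The ventricle identity markers were apart as well (86.5 to 87.4 against 65.5 to 79.7 FPKM), and their part was not tested. Pde4d was 5.97 ± 1.12 FPKM in the LV and 3.93 ± 1.69 FPKM in the RV after overload (SD, n = 3), with overlapping libraries.

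**Figure D3:**
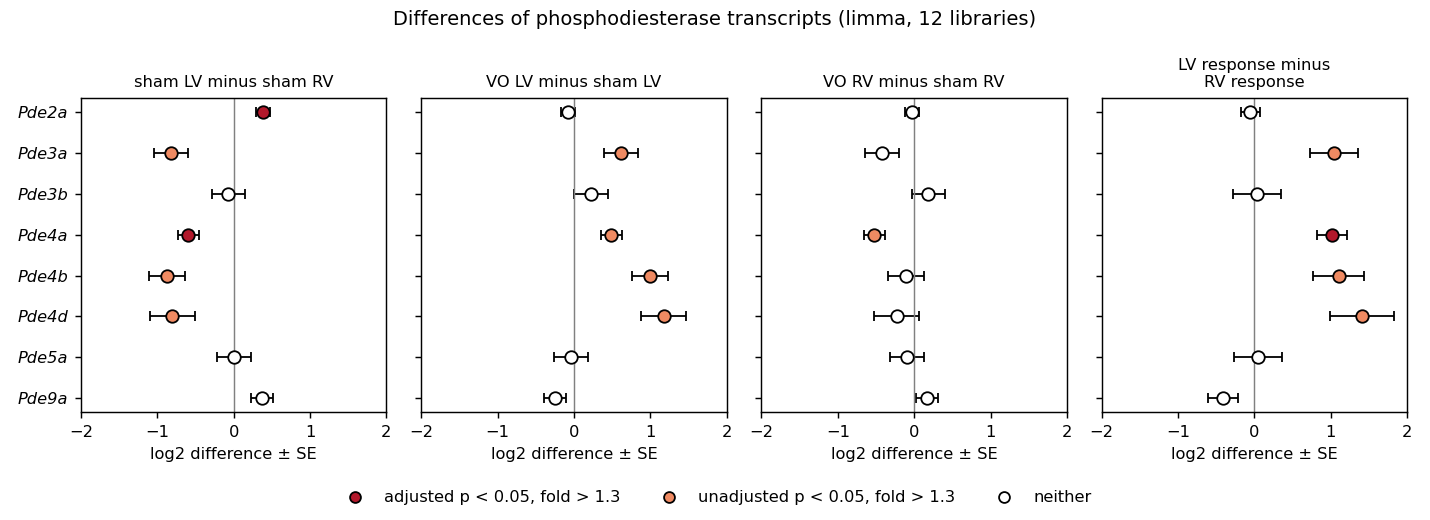
Log2 differences on the log2(FPKM + 0.5) scale (x axis, points, with bars of ± SE) of the 8 tested members (y axis) in 4 comparisons, dark red where called at adjusted p below 0.05 with a fold above 1.3, orange where only the unadjusted p passed, white otherwise. Pde3a, Pde4a, Pde4b and Pde4d lie left of 0 between the sham ventricles and right of 0 in the LV response, and Pde4a is the only member called for a difference between the responses.

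The difference between the responses of the ventricles (VO minus sham in the LV, less VO minus sham in the RV) was tested as an interaction term. Pde4a was called, 1 of 8 members against 4.19% of all genes. By the weaker rule 4 of 8 members responded more positively in the LV, against 23.1% of all genes in either direction. The interaction of Pde4a was 1.02 (SE 0.19, limma adjusted p = 0.0303), made up of 0.49 in the LV and -0.53 in the RV. It was 1.00 with the Y-linked covariate (limma adjusted p = 0.0484) and 0.97 with each library's gene-length trend removed (limma adjusted p = 0.0339). It was no longer called when all genes above 0 were tested (1.02, limma adjusted p = 0.0598). The call was also lost without the 2 RV libraries rich in atrial markers (0.94, limma adjusted p = 0.0791), a setting chosen after seeing the data. With replicate numbers as a block, over all groups or within treatment, it was lost as well. The adjusted p ranged over 0.0153 to 0.0895 when 1 library was left out, and passed 0.05 without sham LV replicates 1 or 2, sham RV replicates 1 or 2, VO LV replicates 2 or 3, or VO RV replicate 3.

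The interactions of Pde3a, Pde4b and Pde4d were 1.04 (SE 0.32), 1.10 (SE 0.33) and 1.41 (SE 0.42), with limma adjusted p of 0.0781, 0.0777 and 0.0749, and were not called. That of Pde9a was -0.41 (SE 0.20, limma adjusted p = 0.223). For Pde2a, Pde3b and Pde5a the interactions were -0.05 (SE 0.13), 0.03 (SE 0.31) and 0.05 (SE 0.31). The 3 sham LV libraries enter the comparison of the sham ventricles, the LV response and the interaction alike, so low values there move all of these together, and the comparisons are not independent of each other.

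The rest of the pathway was followed in 6 lists holding 128 genes, of which 126 were matched in the table and 99 were tested, in 100 rows because Gnas is listed there under 2 identifiers. In the LV response and the RV response none of them was called. Among the other phosphodiesterases, 9 of 15 were tested. Pde7b, a cAMP-specific enzyme, was called lower in sham LV (2.10 ± 0.11 FPKM) against sham RV (4.37 ± 0.29 FPKM) (mean ± SD, n = 3, here and in the list means that follow), at a log2 difference of -0.90 (limma adjusted p = 0.0319). After overload it read 4.22 ± 0.57 FPKM in the LV and 2.82 ± 0.74 FPKM in the RV, and its interaction was called too, at 1.43 (limma adjusted p = 0.0249). Pde7a (interaction -0.75), Pde8a (sham difference 0.37) and Pde1a (RV response 0.09) passed no adjusted test.

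Of the cGMP synthesis list, 12 of 18 genes were tested. Between the sham ventricles Nppb, which encodes B-type natriuretic peptide, was called higher in the LV (227 ± 14.5 against 102 ± 31.9 FPKM, log2 difference 1.20). Corin, the protease that activates natriuretic peptide precursors, was called lower (2.03 ± 0.33 against 7.18 ± 1.37 FPKM, log2 difference -1.59). Nppb read 369.7 ± 52.2 FPKM in the overloaded LV and 178 ± 42.3 FPKM in the overloaded RV, at log2 differences of 0.70 and 0.83 from sham that were not called (limma adjusted p = 0.109 and 0.535). Furin, another processing protease, was called in the interaction at 0.62. The receptor genes Npr1 (LV response -0.39), Npr2 (-0.40) and Npr3 (0.32) were not called in any comparison.

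Of the cGMP effectors and PKG targets, 20 of 25 were tested. Ppp1r12b, a myosin phosphatase targeting subunit of striated muscle, was called lower in sham LV against sham RV (15.9 ± 1.69 against 28.3 ± 3.67 FPKM, log2 difference -0.81) and in the interaction (1.35), and read 29.2 ± 4.28 and 19.95 ± 3.09 FPKM in the overloaded LV and RV. Rgs2, a regulator of G protein signalling, was called lower in sham LV (log2 difference -0.85). The median log2 difference of this list was -0.03 in the LV response and 0.00 in the RV response, near those of all genes.

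Of the cAMP synthesis list, 18 rows were tested. Adcy5, a main adenylyl cyclase of the heart, read 28.5 ± 1.10 FPKM in the LV and 53.5 ± 3.40 FPKM in the RV of sham rats, and 51.4 ± 5.51 and 38.6 ± 10.6 FPKM in those of VO rats. It was called between the sham ventricles (log2 difference -0.90) and in the interaction (1.33). Adrb1, the main beta-adrenergic receptor of cardiomyocytes, was called in both as well (-0.74 and 1.26), with 9.70 ± 1.75 FPKM in sham LV and 17.3 ± 1.97 FPKM in VO LV. The LV responses of Adcy5 and Adrb1 were 0.84 and 0.81, each with a limma adjusted p over 0.05 (0.0519 for both).

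The cAMP effectors held the most calls. Of 21 tested, 4 were called lower in the LV of sham rats, namely Popdc2 (-0.82), Ryr2 (-0.94), Prkar2a (-1.09) and Hcn4 (-1.802), and 6 were called in the interaction, namely Prkar1a (0.94), Popdc2 (0.96), Hcn2 (1.12), Ryr2 (1.61), Prkar2a (1.71) and Pkia (2.20). Calls in those comparisons were made for 3.85% and 4.19% of all tested genes. Prkar1a and Prkar2a are regulatory subunits of PKA, Pkia encodes an inhibitor of PKA, and Popdc2 binds cAMP. Hcn2 and Hcn4 are pacemaker channels modulated by cAMP, and Ryr2 is the calcium release channel that PKA phosphorylates. In the LV response 17 of 21 were higher in VO LV and the median log2 difference was 0.44, and in the RV response 5 of 21 were higher and the median was -0.21. Of all tested genes, 47.2% and 50.6% were higher, with medians of -0.02 and 0.00. Ryr2 read 22.6 ± 1.43 FPKM in the LV and 44.6 ± 10.6 FPKM in the RV of sham rats, and 43.5 ± 8.70 and 27.0 ± 4.54 FPKM in the overloaded LV and RV.

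Of the anchors and partners, 20 of 23 were tested. Akap6, the nuclear envelope anchor of PKA and Pde4d, was called lower in sham LV (-1.30) and in the interaction (2.07), with 5.50 ± 1.01 FPKM in sham LV and 14.1 ± 3.31 FPKM in VO LV. Pde4dip, a protein that binds Pde4d, was called in both as well (-0.83 and 1.25). Akap1 and Akap7 were called in the interaction only (0.99 and 0.98). Every gene of the 6 lists that was called lost the call in at least 1 fit without a library, with the largest adjusted p between 0.0799 and 0.151.

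**Figure D4:**
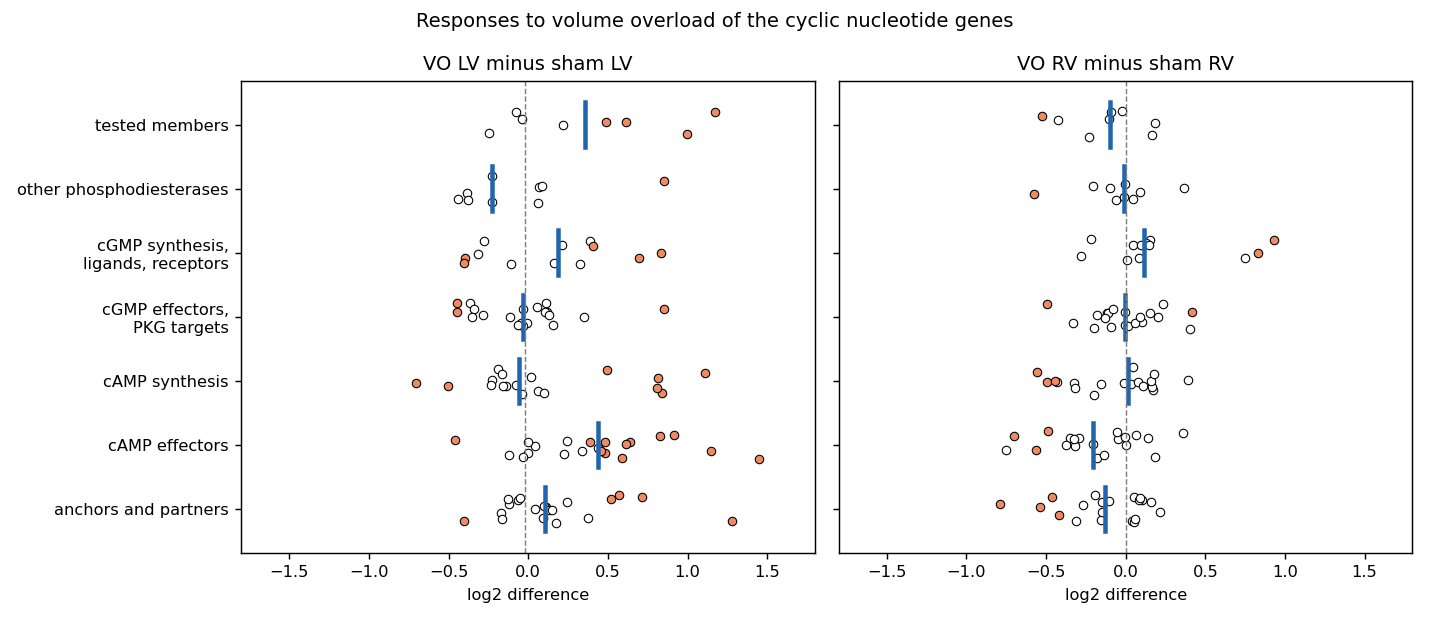
Log2 differences (x axis) of the tested members and of the 6 pathway lists (y axis) in the LV response (left) and the RV response (right), with each point a gene, orange where unadjusted p is below 0.05 with a fold above 1.3, a blue bar at the list's median and a dashed line at the median of all tested genes. The medians of the members and of the cAMP effectors are 0.36 and 0.44 in the LV and -0.10 and -0.21 in the RV.

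As a description of pattern, each tested member was set beside the 12667 genes with a mean of at least 1 FPKM, by Pearson's r of log2 values over the 12 libraries, which include the 4 groups and so share their differences. The gene most like Pde2a was Ccdc88c (r = 0.94), followed by Tceal7 and Aqp1, the latter a water channel of endothelium and red cells. For Pde3a they were Plxna4a, Nfib and Epm2aip1 (0.99, 0.99 and 0.99). Pde4a stood nearest to an unnamed locus, to Trak2 and to Myocd, a coactivator of muscle genes (0.95, 0.94 and 0.94), Pde4b to Rnf139, Zfyve9 and Arid1b (0.96, 0.96 and 0.96), and Pde4d to an unnamed locus, Vldlr and Ikbkg (0.96, 0.96 and 0.95). The nearest genes were Usp1, Vnn1 and Smc4 for Pde3b (0.94, 0.94 and 0.93) and Appl2, Gga2 and Samd14 for Pde9a (0.92, 0.90 and 0.90). Pde5a had the least close match, Cxcl13 (0.85), followed by Parp14 and Vgll3.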

How the data were processed

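RNA was extracted from myocardium, with Trizol per the labels and with a column kit per the study's methods. Libraries of poly-T selected mRNA were made with the NEBNext Ultra kit and sequenced by the authors, who aligned reads with Hisat2 (2.0.5) and counted them with featureCounts (1.5.0-p3). They deposited FPKM per gene, the only values used. Genome build, annotation release and strand setting are not given in the sources used here. Whole reads were recovered from the FPKM steps (100% of low values whole within 0.02), giving the depths stated. The total implied by these steps was 0.967 to 1.124 times a library's reads on genes. In some libraries it was smaller than those reads, so the scaling was not by the mapped total alone.

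FPKM were divided by median-ratio size factors, which ran from 0.9965 to 1.0017 and so changed the values little. A pseudocount of 0.5 was added, and log2 values were fitted with limma (3.58.1, R 4.3.3, eBayes with trend). The fit covered 13910 genes with mean FPKM of at least 0.5, in a single model of 4 groups. P-values were Benjamini-Hochberg adjusted over all genes. The thresholds (adjusted p below 0.05, fold above 1.3) were the authors'. The script was tested on simulated data.

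The members, gene lists and tests were chosen with earlier results of these data known. All members were described. From each pathway list every called gene was named, and otherwise up to 3 with the smallest p per comparison. An item of the cAMP synthesis list that this rule would name is not reported here. For each member, the 3 genes most like it were named. The sources do not say whether replicates came from separate litters or whether an LV and an RV library came from 1 animal, so p-values measure the spread between these libraries. Correlations of same-numbered deviations ran from -0.28 to 0.12, a range that includes pairs of a sham and a VO library. Between LV and RV of sham rats they were 0.04, 0.04 and 0.12 for replicates 1, 2 and 3. In VO rats they were 0.05, -0.05 and -0.22. Y-high and Y-low status was the same in LV and RV for each sham number, but differed for VO replicate 3. Whether LV and RV libraries of a number are pairs was not tested. No 2 libraries held identical values. In all, 28 alternatives were run, 12 of them leaving out a library. Expression of Prkg1 was not analysed here.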

Additional observations from a re-analysis of the deposited data

Results flagged for a closer look

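The response of Pde4a differed between the ventricles by the interaction test, at 1.0154 on the log2 scale (SE 0.19, limma adjusted p = 0.0303). Pde4a was higher in all 3 VO LV libraries than in all 3 sham LV libraries, and lower in all 3 VO RV libraries than in all 3 sham RV libraries. Over the 27 alternatives that could be run for it, the difference kept its sign in 27 and its call in 16, with adjusted p from 0.0153 to 0.146.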

How the results depend on the processing

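In the comparison of the sham ventricles, 2 members were called. The count was 1 with a pseudocount of 1 and 4 with array weights. It was 0 with all genes above 0, with a separate fit of 6 libraries, with the Y-linked covariate, with the atrial marker covariate, and without the 2 RV libraries rich in atrial markers, an alternative chosen after seeing the data. It ranged from 0 to 4 without 1 library (0 without any one sham LV or VO LV library or sham RV replicate 1 or 2, 1 without sham RV replicate 3, 4 without VO RV replicate 3). In the LV response, where 0 were called, the count was 2 with a separate fit and with array weights, 1 with the atrial marker covariate and with voom on recovered reads, and 0 to 2 without 1 library (2 without VO RV replicate 3). In the difference of responses, where 1 was called, it was 0 with all genes above 0 and without the 2 RV libraries, 4 with array weights, 3 with the atrial marker covariate, and 0 to 3 without 1 library (3 without sham RV replicate 3 and without VO RV replicate 2, and 0 without sham LV replicates 1 or 2, sham RV replicates 1 or 2, VO LV replicates 2 or 3, or VO RV replicate 3). Counts in the RV response and between the overloaded ventricles stayed at 0 throughout. The cause of these shifts was not tested.

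As a replicate block, the numbers gave 0 called members between the sham ventricles and 0 in the difference of responses, and the same with numbers blocked within treatment. Correlations of same-numbered deviations ran from -0.28 to 0.12, with pairs across treatments included. The main model did not take the numbers as pairs, and whether they are pairs within a treatment was not tested.

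Directions turned only for members whose differences were not called. With the atrial marker covariate, Pde3b was 0.053 between the sham ventricles and 0.14 between the overloaded ventricles, and Pde2a was 0.0082 in the RV response. With the Y-linked covariate, Pde5a was 0.066 in the LV response, Pde9a 0.0020 between the overloaded ventricles and Pde3b -0.014 in the difference of responses. With the gene-length trend removed, Pde2a was 0.023 in the RV response, and Pde3b and Pde5a were -0.066 and -0.018 in the difference of responses. With array weights, Pde3b was 0.046 between the overloaded ventricles and Pde5a -0.058 in the difference of responses. With voom, Pde5a was -0.0033 between the sham ventricles. Without the 2 RV libraries, Pde2a was 0.048 and Pde3b -0.019 in the RV response, Pde3b 0.23 between the overloaded ventricles and Pde5a -0.018 in the difference of responses. Without 1 library, Pde5a ranged over -0.12 to 0.21 (sham ventricles), -0.20 to 0.11 (LV response), -0.22 to 0.11 (RV response), -0.13 to 0.20 (overloaded ventricles) and -0.15 to 0.20 (difference of responses). Pde3b ranged over -0.075 to 0.35 in the RV response, -0.20 to 0.23 between the overloaded ventricles and -0.13 to 0.30 in the difference of responses. Pde2a ranged over -0.081 to 0.073 in the RV response and -0.15 to 0.0043 in the difference of responses. In the RV response Pde4b ranged over -0.38 to 0.11 and Pde4d over -0.54 to 0.021. Between the overloaded ventricles Pde9a ranged over -0.19 to 0.052.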
